A study of Mus musculus with 48 samples.

Results

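The 31 genes described here encode neuropeptide precursors, granins and the enzymes that cut peptide precursors to size. They were taken by symbol from the 47069 genes of a gene-level count table made from mouse brain, and all 31 were found. By role they comprise 8 peptides known from forebrain interneurons (Npy, Sst, Cort, Vip, Cck, Crh, Pnoc and Tac2), 8 peptides known above all from hypothalamic neurons (Hcrt, Pmch, Pomc, Avp, Oxt, Gal, Trh and Cartpt), 6 other peptides (Nts, Grp, Adcyap1, Nppc, Nmb and Nmu), 5 granins and relatives (Vgf, Scg2, Scg3, Chga and Chgb) and 4 processing genes (Pcsk1, Pcsk2, Pcsk1n and Cpe). The libraries came from striatum, cerebellum and cortex of mice on the mixed C57BL/6N:129Sv strain. Animals of the deletion group carried the 16p11.2 Deletion genotype, a deletion of the syntenic mouse band 7qF3, and the control animals were wild type. Each of 16 animals, 4 males and 4 females of each genotype, gave 1 library per tissue, so that each of the 6 groups held 8 libraries. The labels give a calendar date in place of an age, and it divides the animals exactly as sex does.

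Neuropeptides are made as longer precursors that enter the regulated secretory pathway and are packed into dense-core vesicles. Granins take part in forming these vesicles and are themselves cut into peptides. Within the vesicle the prohormone convertases encoded by Pcsk1 and Pcsk2 cut precursors after pairs of basic residues, the carboxypeptidase encoded by Cpe trims the basic residues left behind, and proSAAS, the product of Pcsk1n, inhibits the first of these convertases. The peptides act mostly through G-protein-coupled receptors, and many of them mark single classes of neurons: somatostatin, vasoactive intestinal peptide and cholecystokinin mark classes of cortical interneurons, and orexin, melanin-concentrating hormone, vasopressin and oxytocin are made by small groups of hypothalamic cells.

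Gene counts per library ran from 29244745 to 60751792. Levels are given as CPM, counts scaled to the library's total after its adjustment by edgeR's TMM factor. Taok2, a gene of the deleted stretch, checked the labels: it had 59.8 to 86.6 CPM in deletion libraries and 126 to 189.6 CPM in wild-type libraries. Defining markers of the labelled tissues varied widely within tissue. The summed CPM of 9 markers of striatal projection neurons was 356 to 6051 in deletion striatum and 260.1 to 3335 in wild-type striatum. It was 519.9 to 2981 in deletion cortex and 246 to 2313 in wild-type cortex, so striatum and cortex overlapped in these markers. The summed CPM of 10 cortical markers did not overlap between them. It was at most 830 in deletion and 1294 in wild-type striatum, and at least 1576 in deletion and 1646 in wild-type cortex. Animals are named D or W, for deletion or wild type, and a number. In 3 striatal libraries, of deletion animal D810 and wild-type animals W805 and W813, the mean log2 CPM of 8 thalamic markers was above that of the striatal markers. The summed CPM of 10 cerebellar markers was lowest in cerebellum of deletion animal D809, at 965 against a group median of 4674, and of wild-type animal W813, at 2612 against 5356. In such bulk tissue, fewer cells of a type and less RNA per cell cannot be told apart.

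Levels spanned more than 4 orders of magnitude. Set per kilobase of exon, Cpe led in every tissue, with a mean of 903 CPM per kb in wild-type striatum, 444 in cerebellum and 1007 in cortex. In wild-type cortex the next places went to Sst at 412, Cck at 262, Chgb at 229.8 and Npy at 209 CPM per kb, and the ranges over libraries of each neighbouring pair among these 4 overlapped. In wild-type cerebellum Chgb at 315 and Scg3 at 173 CPM per kb followed Cpe; the ranges of Cpe and Chgb overlapped, and every library's Chgb level stood above every Scg3 level. Wild-type striatum had Sst second at 262, and Oxt and Avp followed at 258 CPM per kb each, with overlapping ranges, although the median library held 88.3 CPM per kb of Oxt and 4.87 of Avp. Nmu, which encodes neuromedin U, stood last in all 3 tissues, at 0.609, 0.0778 and 0.0139 CPM per kb in wild-type striatum, cerebellum and cortex.

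**Figure D1:**
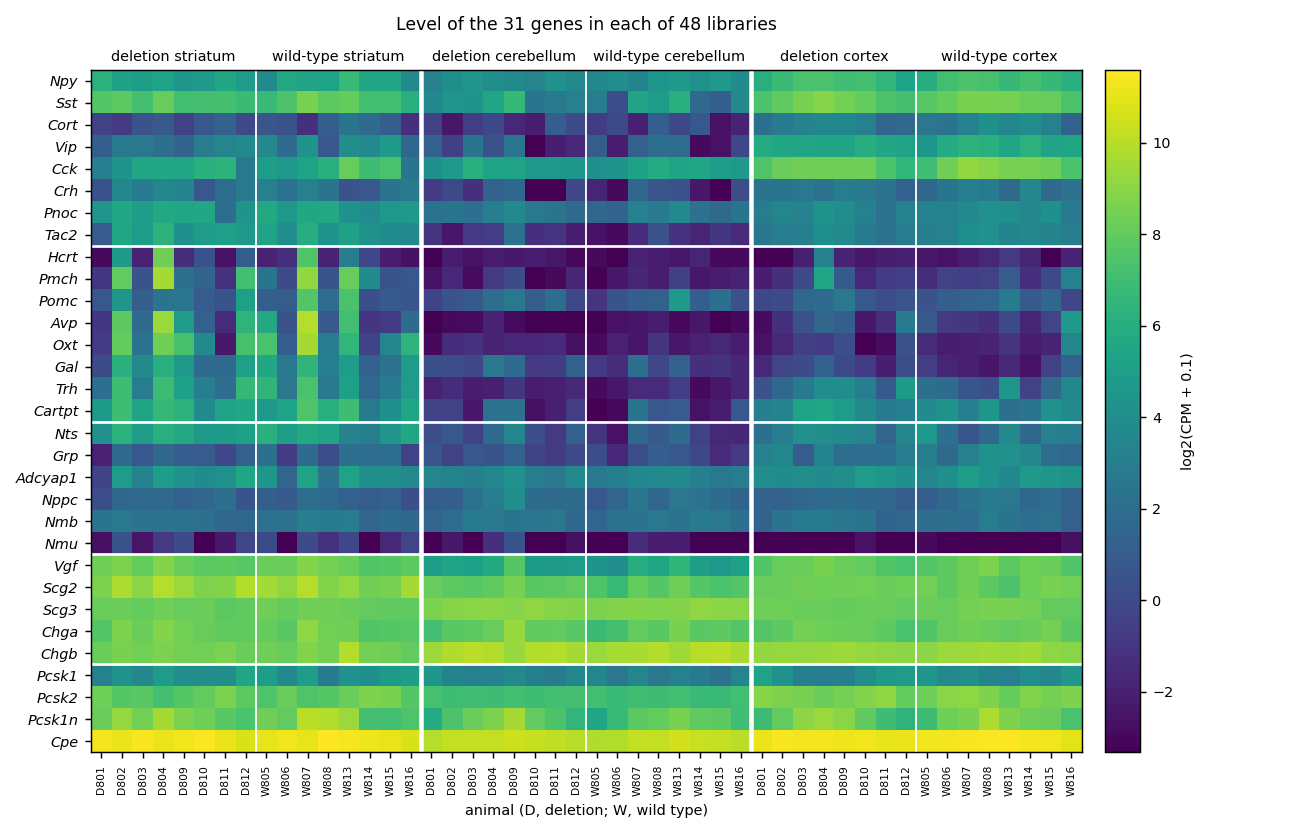
Level of each of the 31 genes (rows, grouped by role: interneuron peptides, hypothalamic peptides, other peptides, granins, processing) in each of the 48 libraries (columns, deletion left of wild type in each tissue), as log2 of CPM plus 0.1. The Scg3 and Cpe rows are even across a tissue, whereas the hypothalamic peptide rows are patchy across the 16 striatal libraries and dark in nearly all cerebellar ones.

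The tissues were compared first, in the 8 wild-type animals, with a gene called at an adjusted p under 0.05 in edgeR's quasi-likelihood test and a fold change of at least 2. Differences are log2 fold changes, first-named tissue over second, and ± gives the SE of the fit. The 3 comparisons share libraries pairwise. In striatum relative to cortex, 9 of 29 tested members were called higher and 5 lower, where 4.60% and 2.62% of all genes tested were called higher and lower. In cerebellum relative to cortex, 16 of 26 were called lower, where 13.1% of all genes were, and 0 were called higher by edgeR or by DESeq2, where 9.02% of all genes were called higher by edgeR. Without the fold minimum, 2 members, Scg3 and Chgb, passed as higher in cerebellum, and the share of all genes passing so is not given here. In striatum relative to cerebellum, 20 of 29 were called higher and 1 lower, where 13.7% and 7.67% of all genes were. The median log2 fold change of the tested members was 0.05, -1.47 and 1.57 in these 3 comparisons, beside 0.01, 0.03 and -0.00 over all genes. Hcrt and Nmu reached the count filter in too few libraries to be tested in any of them, and Pmch, Avp and Oxt in too few for cerebellum against cortex. In the 8 deletion animals, 13 of the 14, 14 of the 16 and 16 of the 21 members were called the same way. The matching share over all called genes is not given here.

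**Figure D2:**
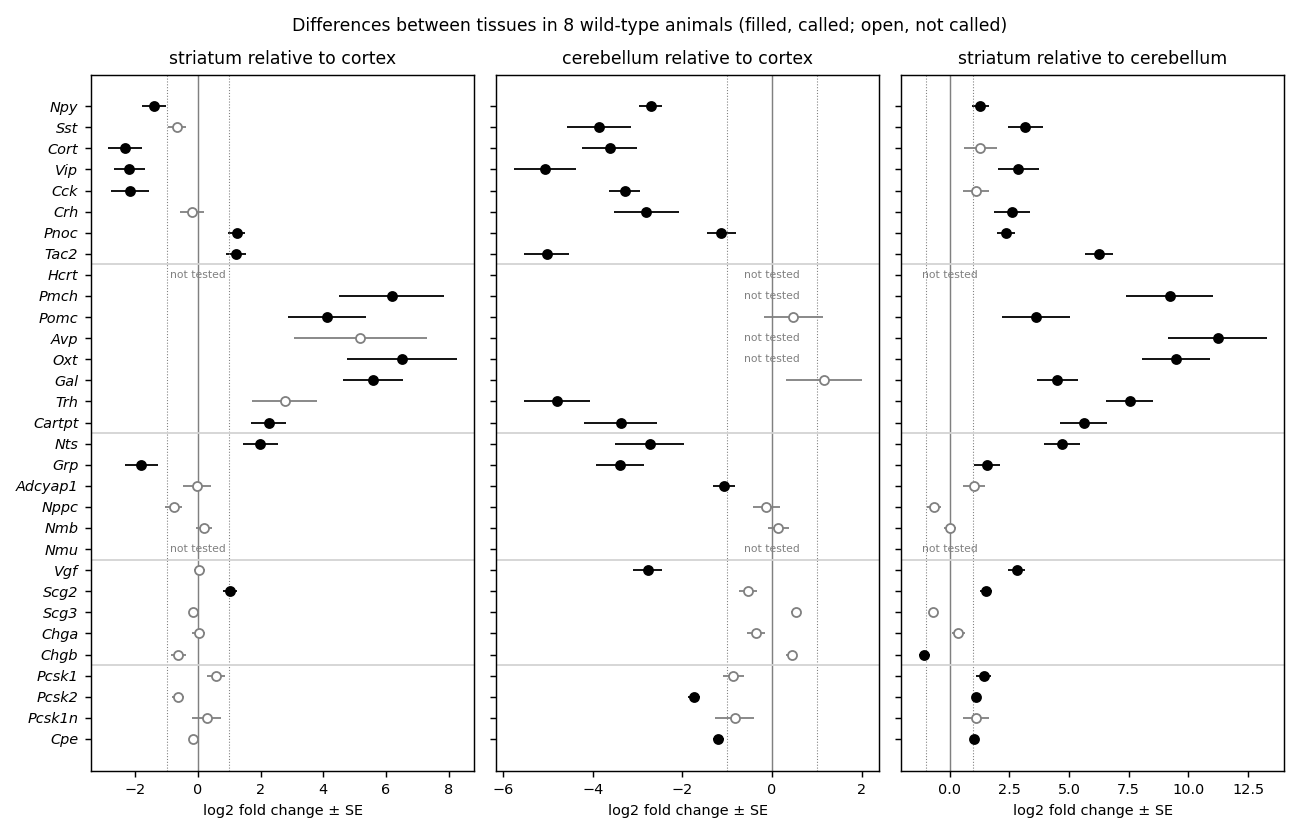
Log2 fold change of each member (points, with SE bars) between pairs of tissues in 8 wild-type animals, fitted by edgeR; filled points were called and dotted lines mark a fold of 2. The upper block, the interneuron peptides, lies left of 0 throughout in cerebellum relative to cortex, and the block of hypothalamic peptides lies right of 0 in both comparisons of striatum.

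All 8 interneuron peptides were called lower in cerebellum than in cortex. Sst had 68.4, 155 and 380.5 CPM in wild-type striatum, 1.11, 10.2 and 65.5 CPM in wild-type cerebellum and 166, 292 and 394 CPM in wild-type cortex (lowest, median and highest library). The cerebellar and cortical ranges did not overlap. Its log2 difference in cerebellum relative to cortex was -3.86 ± 0.72 (adjusted p = 0.000290). Vip, made by a class of disinhibitory interneurons, had, with Tac2, the largest differences of the group between cerebellum and cortex. Vip had 1.52, 13.5 and 26.0 CPM in wild-type striatum, 0.0326, 1.41 and 4.05 CPM in wild-type cerebellum and 22.9, 51.5 and 79.4 CPM in wild-type cortex. The striatal and cortical ranges of Vip touched, since its highest striatal library stood above its lowest cortical one, and the cerebellar libraries lay below all cortical ones. The log2 difference of Vip was -5.07 ± 0.70 (adjusted p = 1.52e-05) in cerebellum and -2.18 ± 0.49 (adjusted p = 0.00640) in striatum, each relative to cortex.

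Cck, which encodes cholecystokinin and is made by both interneurons and pyramidal cells, followed the same order in its medians. Cck had 5.41, 52.2 and 276 CPM in wild-type striatum, 17.9, 34.4 and 58.9 CPM in wild-type cerebellum and 128, 347 and 579.7 CPM in wild-type cortex. Its striatal range reached into the cortical one through the libraries of wild-type animals W813 and W815, at 276 and 161 CPM. The summed CPM of 10 cortical markers was 1269.6 and 1294 in these 2 libraries, where the 8 wild-type striatal libraries had a median of 284. The part of cortical tissue in the Cck level of these libraries was not tested. Cck had a log2 difference of -3.29 ± 0.34 (adjusted p = 6.10e-07) in cerebellum and -2.17 ± 0.62 (adjusted p = 0.0227) in striatum, relative to cortex. Npy had 13.04, 42.3 and 112 CPM in wild-type striatum, 10.3, 17.6 and 25.5 CPM in wild-type cerebellum and 62.1, 119 and 174 CPM in wild-type cortex. Neuropeptide Y was thus lowest in cerebellum, with no overlap with cortex, and its log2 difference was -2.71 ± 0.26 (adjusted p = 3.17e-07) in cerebellum and -1.41 ± 0.39 (adjusted p = 0.0188) in striatum, relative to cortex.

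Cortistatin and somatostatin are paralogous peptides that bind the same receptors, and the coding bases of the active ring are shown because the 2 genes differ little there while their levels differ widely. The stretches lie in exon 2 of 2 of each gene (GENCODE vM21, GRCm38), at chr4:149125270-149125305 on the minus strand for Cort and chr16:23889732-23889767 on the minus strand for Sst, and each spans 36 coding bases. Capitals mark the bases that differ.
Cort: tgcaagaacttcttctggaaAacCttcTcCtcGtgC
Sst: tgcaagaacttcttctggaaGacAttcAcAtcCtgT
Of the 36 bases 30 were identical (83.3%), and the substitutions from Sst to Cort, counted from 1 at the 5′ end of the stretch, were G21A, A24C, A28T, A30C, C33G and T36C. Cort had 0.312, 1.76 and 5.57 CPM in wild-type striatum, 0.0631, 0.691 and 2.10 CPM in wild-type cerebellum and 2.58, 9.25 and 17.7 CPM in wild-type cortex. Per kilobase of exon, the mean of Cort was 14.2 CPM in wild-type cortex, beside 412 for Sst. Cort was called lower in both of the other tissues relative to cortex, by a log2 difference of -3.62 ± 0.62 (adjusted p = 0.000124) in cerebellum and -2.32 ± 0.54 (adjusted p = 0.00777) in striatum. Sst was not called between striatum and cortex, at -0.67 ± 0.29 (adjusted p = 0.123). With the animal as a replicate block in edgeR, Sst had -0.78 (adjusted p = 0.00282) and stayed uncalled only through the fold minimum.

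Pnoc, the precursor of nociceptin, and Tac2, the precursor of neurokinin B, ran the other way and were called higher in striatum than in cortex. Tac2 had 12.9, 19.2 and 62.0 CPM in wild-type striatum, 0.0325, 0.265 and 1.22 CPM in wild-type cerebellum and 7.73, 10.2 and 18.4 CPM in wild-type cortex. The striatal and cerebellar ranges of Tac2 lay far apart, at a log2 difference of 6.24 ± 0.59 (adjusted p = 5.53e-07), and striatum relative to cortex gave 1.21 ± 0.30 (adjusted p = 0.0116). Pnoc had 14.5, 25.7 and 52.3 CPM in wild-type striatum, 2.64, 5.11 and 13.1 CPM in wild-type cerebellum and 7.19, 12.6 and 18.8 CPM in wild-type cortex. Nociceptin precursor RNA was called higher in striatum than in cortex, at 1.24 ± 0.27 (adjusted p = 0.00509), and lower in cerebellum than in cortex, at -1.13 ± 0.33 (adjusted p = 0.00892). Crh had 1.29, 5.10 and 9.23 CPM in wild-type striatum, 0, 0.631 and 2.78 CPM in wild-type cerebellum and 3.07, 5.03 and 11.7 CPM in wild-type cortex. Crh, the corticotropin-releasing hormone gene, was not called between striatum and cortex (-0.19 ± 0.39, adjusted p = 0.770) and was called lower in cerebellum than in cortex (-2.81 ± 0.73, adjusted p = 0.00416). Relative to cerebellum, 6 of the 8 interneuron peptides were called higher in striatum, and Cort and Cck were not; with the animal as a replicate block Cort was called (1.45, adjusted p = 0.0249). The Tac2 call between striatum and cortex did not pass the fold minimum without the striatal library of wild-type animal W807, the highest in hypothalamic peptides, at a log2 difference of 0.97. Nor did it without the striatal libraries of W805 and W813, in which thalamic markers exceeded striatal ones in mean log2 CPM, at 0.98.

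The hypothalamic peptides gave the largest folds in the comparisons of striatum with the other tissues. In striatum relative to cerebellum all 7 tested members of this role were called higher, and 5 of 7 were called higher relative to cortex. Avp had 0.376, 2.81 and 999 CPM in wild-type striatum, 0, 0.0487 and 0.117 CPM in wild-type cerebellum and 0.192, 0.613 and 25.9 CPM in wild-type cortex. Every striatal library stood above every cerebellar one in vasopressin RNA, and the fitted log2 fold change of 11.22 ± 2.07 (adjusted p = 0.000359) depends on the small prior count of the fit. Against cortex, Avp was not called, at 5.18 ± 2.12 (adjusted p = 0.101). Oxt had 0.690, 47.4 and 755 CPM in wild-type striatum, 0.0318, 0.139 and 0.408 CPM in wild-type cerebellum and 0.128, 0.181 and 11.4 CPM in wild-type cortex. For Oxt every striatal library stood above every cerebellar one, and the log2 difference was 9.47 ± 1.43 (adjusted p = 6.01e-05) relative to cerebellum and 6.50 ± 1.75 (adjusted p = 0.0174) relative to cortex.

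The genes of oxytocin and vasopressin are tail-to-tail neighbours on chromosome 2, Oxt at chr2:130576173-130577054 on the plus strand and Avp at chr2:130580620-130582554 on the minus strand, and their hormone-coding bases are set side by side because the 2 RNAs are told apart by few bases here. The stretches lie in exon 1 of 3 of each gene, at chr2:130576267-130576302 for Oxt and chr2:130582437-130582472 for Avp (GRCm38), and run from the first cysteine codon of the hormone through the glycines and the Lys-Arg cleavage site after it. Capitals mark the bases that differ.
Oxt: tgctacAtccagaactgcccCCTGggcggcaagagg
Avp: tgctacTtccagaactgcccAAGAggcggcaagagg
Of 36 bases 31 were identical (86.1%), and the substitutions from Avp to Oxt, counted from 1 at the 5′ end, were T7A, A21C, A22C, G23T and A24G. The last bases encode the pair of basic residues at which convertases cut. The order of the pair was not the same in every animal: wild-type animal W813 had 133 CPM of Avp and 89.7 of Oxt in striatum, whereas wild-type animal W805 had 52.1 and 159. Reads of the parts that the 2 genes share may have been split between them, so the ratio of Avp to Oxt is uncertain.

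Among the other hypothalamic peptides, Pmch, which encodes melanin-concentrating hormone, was called higher in striatum than in either of the other tissues. Pmch had 0.985, 3.61 and 590.2 CPM in wild-type striatum, 0, 0.121 and 0.615 CPM in wild-type cerebellum and 0.282, 0.677 and 9.28 CPM in wild-type cortex. Its striatal median was 3.61 CPM, far under its mean of 113 CPM, which the libraries of animals W807 and W813 made up almost alone. Relative to cortex its log2 difference was 6.18 ± 1.68 (adjusted p = 0.0182), and with the animal as a replicate block the adjusted p was 0.121. Gal had 2.26, 18.7 and 85.2 CPM in wild-type striatum, 0.203, 0.412 and 4.22 CPM in wild-type cerebellum and 0.0641, 0.212 and 2.395 CPM in wild-type cortex. Galanin RNA was called higher in striatum than in cortex, at 5.59 ± 0.95 (adjusted p = 0.00111), and than in cerebellum, at 4.52 ± 0.85 (adjusted p = 0.000424). Trh had 3.32, 18.7 and 158 CPM in wild-type striatum, 0.0318, 0.150 and 0.551 CPM in wild-type cerebellum and 0.641, 3.63 and 22.9 CPM in wild-type cortex. Thyrotropin-releasing hormone RNA did not overlap between striatum and cerebellum (7.55 ± 0.98, adjusted p = 1.41e-05), was not called between striatum and cortex (2.77 ± 1.04, adjusted p = 0.0769) except with the animal as a replicate block (2.23, adjusted p = 0.0304), and was called lower in cerebellum than in cortex (-4.80 ± 0.74, adjusted p = 4.68e-05).

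Cartpt, the precursor of the CART peptides, had the smallest spread between striatal libraries of this role, with an SD of 1.301 in log2 CPM. Cartpt had 6.39, 42.8 and 179 CPM in wild-type striatum, 0, 0.836 and 5.45 CPM in wild-type cerebellum and 4.48, 14.0 and 23.5 CPM in wild-type cortex. Striatum stood above cerebellum without overlap, at 5.62 ± 0.98 (adjusted p = 0.000226), and the call relative to cortex was 2.26 ± 0.56 (adjusted p = 0.0107). Pomc, the precursor of melanocortins and beta-endorphin, was called higher in striatum than in cortex (4.12 ± 1.24, adjusted p = 0.0298) and than in cerebellum (3.62 ± 1.41, adjusted p = 0.0485), with overlapping ranges in both. Its striatal libraries had 1.16, 2.08 and 196 CPM in wild-type animals. Both Pomc calls were lost with the replicate block, at adjusted p = 0.279 and 0.248, and without the striatal library of wild-type animal W807, at 0.194 and 0.237. The 2 wild-type striatal libraries in which thalamic markers exceeded striatal ones in mean log2 CPM were those of W805 and W813. Without them, 5 in place of 9 members were called higher in striatum than in cortex, namely Pnoc, Oxt, Gal, Cartpt and Nts. The share of all genes called without them is not given here.

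Of the other peptides, Nts had its highest median in striatum and Grp in cortex, and the striatal and cortical ranges of both overlapped. Nts had 8.15, 36.6 and 71.5 CPM in wild-type striatum, 0.0651, 0.517 and 3.79 CPM in wild-type cerebellum and 1.44, 6.38 and 24.6 CPM in wild-type cortex. Neurotensin RNA, made in basal forebrain and hypothalamic neurons among others, was called higher in striatum than in cerebellum without overlap, at 4.72 ± 0.75 (adjusted p = 9.98e-05), and than in cortex, at 1.99 ± 0.56 (adjusted p = 0.0213). Grp had 0.4927, 3.81 and 4.44 CPM in wild-type striatum, 0.228, 0.963 and 2.07 CPM in wild-type cerebellum and 3.37, 8.63 and 20.1 CPM in wild-type cortex. Gastrin-releasing peptide RNA was lower in striatum than in cortex (-1.80 ± 0.53, adjusted p = 0.0277) and lower in cerebellum than in cortex (-3.39 ± 0.54, adjusted p = 6.19e-05). Adcyap1, which encodes PACAP, was called lower in cerebellum than in cortex, at -1.07 ± 0.24 (adjusted p = 0.00134). Nppc and Nmb, the genes of C-type natriuretic peptide and neuromedin B, were called in none of the 3 comparisons, with wild-type medians between 2.25 and 5.02 CPM. Nmb was the 1 member on chromosome 7, which carries the deletion. Its exons (chr7:80902227-80905076, minus strand) overlap those of Sec11a on the same strand, so that its counts are uncertain.

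The granins were abundant in every library, and Vgf was the 1 granin called lower in cerebellum than in cortex. Vgf had 189, 291 and 449 CPM in wild-type striatum, 16.4, 33.4 and 87.2 CPM in wild-type cerebellum and 191, 264 and 409 CPM in wild-type cortex. VGF, a granin-like precursor induced by neurotrophins, had no overlap between cerebellum and cortex (-2.78 ± 0.33, adjusted p = 3.28e-06), was called higher in striatum than in cerebellum (2.81 ± 0.34, adjusted p = 7.48e-06), and was not called between striatum and cortex (0.05 ± 0.17, adjusted p = 0.883). Chgb had 258, 343 and 942 CPM in wild-type striatum, 657, 832 and 1068 CPM in wild-type cerebellum and 500.3, 661 and 745 CPM in wild-type cortex. Chromogranin B was the 1 member called lower in striatum than in cerebellum, at -1.07 ± 0.23 (adjusted p = 0.00124), and its ranges overlapped there through the 942 CPM of wild-type animal W813. Scg2 had 336, 570.4 and 974 CPM in wild-type striatum, 111, 201 and 323 CPM in wild-type cerebellum and 173, 321 and 391 CPM in wild-type cortex. Secretogranin II was called higher in striatum than in cerebellum (1.54 ± 0.25, adjusted p = 0.000122) and than in cortex (1.02 ± 0.22, adjusted p = 0.00538). The second of these Scg2 calls sat at the fold minimum, with a log2 difference of 0.99 with the replicate block.

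Scg3 and Chga were called in none of the 3 comparisons. Scg3 had 243, 287 and 335 CPM in wild-type striatum, 409, 455 and 583 CPM in wild-type cerebellum and 256, 331 and 381 CPM in wild-type cortex. Secretogranin III, which binds granins to the vesicle membrane, was higher in every cerebellar library than in any striatal or cortical one, yet its log2 difference of 0.54 ± 0.11 (adjusted p = 0.000545) relative to cortex was under the fold minimum. Chga, the chromogranin A gene, had 184, 243 and 537 CPM in wild-type striatum, 113, 221 and 389 CPM in cerebellum and 189.7, 284 and 356 CPM in cortex. Of the processing genes, Cpe and Pcsk2 were called lower in cerebellum than in cortex and higher in striatum than in cerebellum. Cpe had 1677, 2316 and 3074 CPM in wild-type striatum, 889, 1200.4 and 1504 CPM in wild-type cerebellum and 2047, 2560.1 and 3099 CPM in wild-type cortex. Carboxypeptidase E was not called between striatum and cortex (-0.16 ± 0.12, adjusted p = 0.390) and was lower in every cerebellar library than in any cortical one (-1.20 ± 0.12, adjusted p = 3.95e-07). Pcsk2 had 177, 241 and 412 CPM in wild-type striatum, 105, 127 and 137 CPM in wild-type cerebellum and 265, 417 and 539 CPM in wild-type cortex. The log2 difference of Pcsk2 was -1.73 ± 0.13 (adjusted p = 2.39e-08) in cerebellum relative to cortex and 1.10 ± 0.17 (adjusted p = 6.84e-05) in striatum relative to cerebellum. Pcsk1, the other convertase, was called in striatum relative to cerebellum, at 1.43 ± 0.30 (adjusted p = 0.00117), and its inhibitor gene Pcsk1n was called in none. Transcripts on the opposite strand overlap exons of Pcsk2 and Pcsk1n.

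Promoter sequence was at hand for 26 of the 31 members, with 27 annotated starts (RefSeq, GRCm38.p6). The cAMP response element, TGACGTCA, through which cAMP and calcium signals reach transcription in many neurons, was searched on both strands in the 250 bases before each start; the motif reads the same on both strands. It was found in 5 of the 27 member windows (18.5%) and in 508 of 32851 windows of all genes (1.55%). The 30 bases around it are shown for the 5 genes, 5′ to 3′ along the gene, with the motif in capitals. They lie at chr16:23890874-23890903 (minus strand) for Sst, chr13:99900777-99900806 (minus strand) for Cartpt, chr1:79440076-79440105 (minus strand) for Scg2, chr2:132781559-132781588 (plus strand) for Chgb and chr13:75089768-75089797 (plus strand) for Pcsk1.
Sst: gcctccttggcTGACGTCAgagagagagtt
Cartpt: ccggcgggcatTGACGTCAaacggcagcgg
Scg2: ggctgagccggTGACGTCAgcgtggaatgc
Chgb: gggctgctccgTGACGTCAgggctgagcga
Pcsk1: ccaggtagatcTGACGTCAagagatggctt
The first base of the motif lay 48, 112, 68, 72 and 78 bases before the start of Sst, Cartpt, Scg2, Chgb and Pcsk1. The genes shared no order of tissues: in the medians of wild-type libraries Sst was highest in cortex, Cartpt, Scg2 and Pcsk1 in striatum and Chgb in cerebellum. A match describes these letters and shows no binding.

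Libraries of the same group differed more in these genes, at the median, than over all genes tested. The SD between libraries of log2 CPM, pooled over the genotypes, had a median of 1.06 over the 30 tested members in striatum, beside 0.393 over all genes tested there. In cerebellum the 2 medians were 0.841 and 0.376, and in cortex 0.578 and 0.347. The spread was ordered by role in striatum. Hypothalamic peptides had a median SD of 2.48, interneuron peptides of 1.15, other peptides of 1.12, processing genes of 0.60 and granins of 0.43. Among the steadiest members were Scg3, with 0.18, 0.14 and 0.19 in striatum, cerebellum and cortex, and Cpe, with 0.26, 0.21 and 0.16. In cerebellum Pcsk2 was as steady as Scg3, at 0.14, and in cortex Chgb was, at 0.18.

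Single striatal libraries carried hypothalamic peptide RNA at levels that others hardly held. Avp had 0.264, 16.5 and 663 CPM in deletion striatum, against 0.376, 2.81 and 999 CPM in wild-type striatum, with an SD of 4.11. Pmch had 0.363, 3.50 and 763 CPM in deletion striatum, against 0.985, 3.61 and 590.2 CPM in wild-type striatum, with an SD of 3.97. Oxt had 0.0989, 82.9 and 326 CPM in deletion striatum, against 0.690, 47.4 and 755 CPM in wild-type striatum, with an SD of 3.84. In each of these genes the libraries of a group spanned more than 2 orders of magnitude, and the genotypes overlapped over nearly the whole range. Hcrt had 0.0311, 0.766 and 325 CPM in deletion striatum, against 0.0567, 0.237 and 187 CPM in wild-type striatum. Orexin precursor RNA stood above 9 CPM in 3 libraries, of deletion animals D804 and D802 and wild-type animal W807, and under that in the other 13. The next values were 8.36 CPM in wild-type animal W813 and 2.13 CPM in deletion animal D812. Pomc had 1.38, 3.66 and 34.8 CPM in deletion striatum, against 1.16, 2.08 and 196 CPM in wild-type striatum, with an SD of 2.48. The highest Pomc values were those of wild-type animals W807 and W813, at 196 and 156 CPM. Trh had 3.89, 22.5 and 126 CPM in deletion striatum, against 3.32, 18.7 and 158 CPM in wild-type striatum, with an SD of 2.11. Gal had 1.03, 19.99 and 70.0 CPM in deletion striatum, against 2.26, 18.7 and 85.2 CPM in wild-type striatum, with an SD of 2.03.

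**Figure D3:**
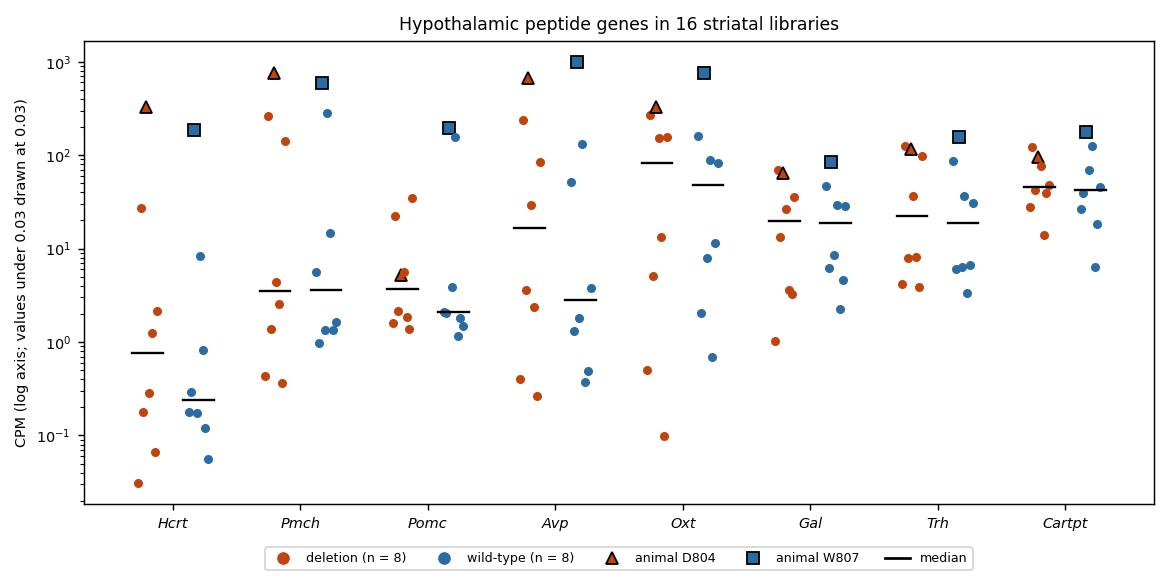
CPM on a log axis of the 8 hypothalamic peptide genes in each striatal library, deletion (left, n = 8) and wild type (right, n = 8) for each gene, with a line at each group's median. Deletion animal D804 (triangles) and wild-type animal W807 (squares) stand at or near the top for nearly every gene, Pomc in animal D804 being the exception.

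The same libraries were high in gene after gene. Deletion animal D804 had the highest striatal level of 2 of the 8 genes, Hcrt and Pmch, and wild-type animal W807 that of the other 6 (Pomc, Avp, Oxt, Gal, Trh and Cartpt). Deletion animal D802 was among the 4 highest of 16 libraries for all 8 genes, and deletion animals D801 and D811 were among the 4 lowest for 7 each. Summed over the 8 genes, striatal CPM was 2361 in deletion animal D804 and 3149 in wild-type animal W807, beside group medians of 204 in deletion and 148 in wild-type striatum. In cerebellum the sum was 2.84 to 16.1 in deletion and 0.954 to 31.3 in wild-type animals, and in cortex 10.6 to 123 and 8.66 to 74.4.

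Markers of hypothalamus that are not peptides were measured beside these values. The summed CPM of 10 such genes (Nkx2-1, Otp, Sim1, Gpr50, Rax, Hmx2, Hmx3, Nr5a1, Fezf1 and Hdc) was 8.90 to 132 in deletion striatum and 10.4 to 150.2 in wild-type striatum, against 6.25 to 13.01 and 6.14 to 14.99 in cerebellum and 2.59 to 9.85 and 1.47 to 10.4 in cortex. All 10 had counts in at least 1 striatal library of each genotype, whereas Sim1 was at 0 in all deletion cerebellar libraries, Nkx2-1 in all wild-type cerebellar ones and Hmx2 in all deletion cortical ones. Hdc made up most of the cerebellar sums, at 4.30 to 11.5 CPM in deletion and 5.92 to 14.2 CPM in wild-type cerebellum. The sum in striatum was 90.9 in deletion animal D804, 14.0 in deletion animal D801, 8.90 in deletion animal D811 and 131 in wild-type animal W807. Of these striatal sums, Hdc gave 27.9 CPM in D804, 6.53 in D801, 5.93 in D811 and 21.6 in W807. Otp, a homeobox factor of hypothalamic neurons, had 28.0 CPM in D804, 0.0311 in D801, 0.0659 in D811 and 38.5 in W807. The order was not the same throughout. Wild-type animal W813 had the highest marker sum, 150.2, with a peptide sum of 861, and deletion animal D812 had 132 with a peptide sum of 600. Single markers also differed from Otp: D804 had 0.137 CPM of Rax and 1.72 of Nr5a1, where W807 had 2.96 and 14.7. The part of hypothalamic tissue in the striatal peptide levels was not tested.

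In cerebellum the largest spreads fell on genes near the floor, with an SD of 2.32 for Vip, 2.26 for Cartpt and 2.14 for Crh, and on Sst at 1.80, Nts at 1.62 and Pomc at 1.42. Sst had 5.40, 16.6 and 103 CPM in deletion cerebellum, against 1.11, 10.2 and 65.5 CPM in wild-type cerebellum. Its highest values were those of deletion animal D809 and wild-type animal W813, the libraries lowest in cerebellar markers. In animal D809 the summed CPM of 9 brainstem markers was 111, beside a deletion-group median of 17.5, and the same library was the highest of its group in 18 of the 31 genes. Vgf had 26.2, 33.2 and 199 CPM in deletion cerebellum, against 16.4, 33.4 and 87.2 CPM in wild-type cerebellum, and its highest deletion value was that of animal D809. In wild-type animal W813 the cerebellar brainstem sum was 8.71, beside a group median of 1.96 and 39.6 in W807. The summed CPM of 10 choroid plexus markers was 13521 in cerebellum of W813, beside a group median of 999. It was 3235 in cerebellum of D809, beside a group median of 2302. The parts of brainstem and choroid plexus tissue in these levels were not tested. In cortex the largest spreads were those of Avp (2.15), Pmch (2.05), Trh (1.63), Gal (1.302), Nts (1.14) and Pcsk1n (0.99). Avp had 0.0332, 0.769 and 7.17 CPM in deletion cortex, against 0.192, 0.613 and 25.9 CPM in wild-type cortex. Wild-type animal W816, the highest, had also the highest cortical level of Oxt, at 11.4 CPM. Pmch had 0.133, 0.545 and 44.3 CPM in deletion cortex, against 0.282, 0.677 and 9.28 CPM in wild-type cortex, and its highest value came from deletion animal D804, which also had the highest striatal one.

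No member was called between deletion and wild type in any tissue. By edgeR's quasi-likelihood test with Benjamini-Hochberg adjustment over all genes, 0 of 30 tested members passed in striatum, 0 of 25 in cerebellum and 0 of 28 in cortex, where 0.128%, 0.138% and 0.130% of all genes tested were called. None had an unadjusted p under 0.05 in edgeR, where 3.32%, 2.08% and 2.03% of all genes did in striatum, cerebellum and cortex. DESeq2 called 0 members, and none had an unadjusted p under 0.05 in DESeq2. The 8 deletion and 8 wild-type libraries overlapped in every tested member, and the share over all genes is not given here. The median log2 fold change of the members was -0.10 in striatum, 0.19 in cerebellum and -0.12 in cortex, beside -0.01, -0.00 and 0.00 over all genes, and the median SE of the members was 0.43, 0.41 and 0.28. Some members were not tested because too few libraries reached the count filter. They were Hcrt in striatum, Hcrt, Oxt and Nmu in cortex, and Hcrt, Pmch, Avp, Oxt, Trh and Nmu in cerebellum.

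**Figure D4:**
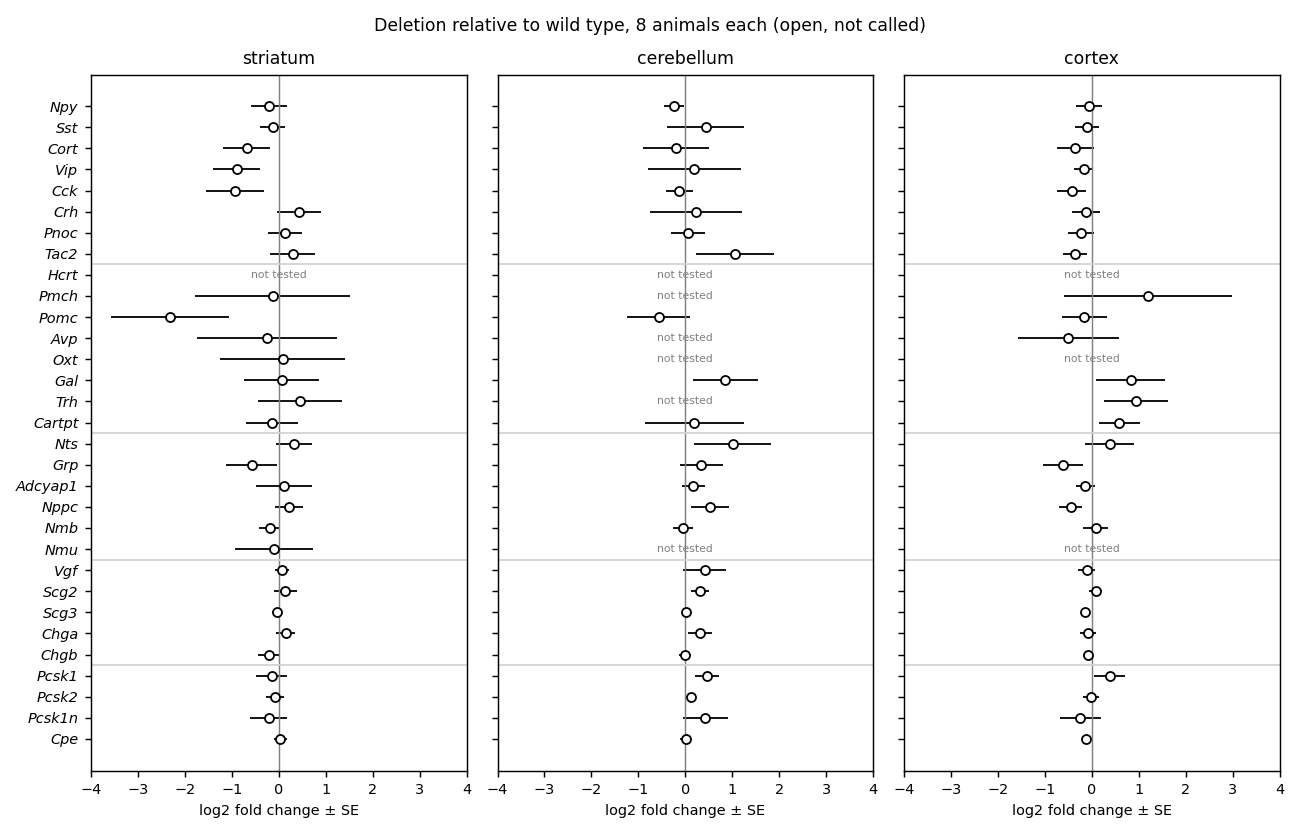
Log2 fold change of each member in deletion relative to wild type (points, with SE bars) in striatum, cerebellum and cortex, 8 animals each, fitted by edgeR. All points are open since none was called, and the bars are among the 3 shortest for Scg3 and Cpe in each tissue and longest for Pmch in striatum and cortex and for Cartpt in cerebellum.

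The 5 members of smallest p in each tissue follow with their values, none of which passed. In striatum these were Pomc, Vip, Cck, Cort and Grp. Pomc had a log2 difference of -2.31 ± 1.25 (adjusted p = 0.99996), with the levels given above: the highest wild-type value, of animal W807, was 94.5 times the wild-type median. Vip had 2.11, 6.44 and 13.4 CPM in deletion striatum, against 1.52, 13.5 and 26.0 CPM in wild-type striatum, at -0.89 ± 0.50 (adjusted p = 0.99996). Cck had 6.48, 45.5 and 78.6 CPM in deletion striatum, against 5.41, 52.2 and 276 CPM in wild-type striatum, at -0.93 ± 0.62 (adjusted p = 0.99996). The wild-type ranges of both were wider at their upper end, and no group stood apart. Cort had 0.488, 1.11 and 2.51 CPM in deletion striatum, against 0.312, 1.76 and 5.57 CPM in wild-type striatum, at -0.69 ± 0.50 (adjusted p = 0.99996), and Grp had 0.155, 1.86 and 3.33 CPM in deletion striatum, against 0.4927, 3.81 and 4.44 CPM in wild-type striatum, at -0.58 ± 0.54 (adjusted p = 0.99996).

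In cortex Nppc, Scg3, Grp, Cck and Trh came first. Nppc had 1.998, 3.14 and 3.74 CPM in deletion cortex, against 2.13, 3.66 and 6.52 CPM in wild-type cortex, at -0.45 ± 0.24 (adjusted p = 0.965). Scg3 had 261, 299 and 314 CPM in deletion cortex, against 256, 331 and 381 CPM in wild-type cortex, at -0.14 ± 0.10 (adjusted p = 0.965). For Nppc, Scg3 and Cck, 0 of the 8 deletion libraries exceeded the mean of wild type, and the ranges overlapped in all 3. Cck had 91.8, 304 and 334 CPM in deletion cortex, against 128, 347 and 579.7 CPM in wild-type cortex, at -0.43 ± 0.31 (adjusted p = 0.965). Grp had 1.96, 6.05 and 11.3 CPM in deletion cortex, against 3.37, 8.63 and 20.1 CPM in wild-type cortex, at -0.62 ± 0.44 (adjusted p = 0.965), and Trh had 1.29, 7.74 and 28.1 CPM in deletion cortex, against 0.641, 3.63 and 22.9 CPM in wild-type cortex, at 0.94 ± 0.68 (adjusted p = 0.965). The signs of Nppc, Scg3, Grp and Cck turned without the cortical libraries of wild-type animals W807, W808, W813 and W814, which are low in striatal markers, where their log2 fold changes were 0.03, 0.11, 0.48 and 0.12.

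In cerebellum Pcsk1, Scg2, Pcsk2, Nppc and Tac2 had the smallest p. Pcsk1 had 6.96, 9.999 and 23.3 CPM in deletion cerebellum, against 4.89, 7.99 and 11.6 CPM in wild-type cerebellum, at 0.46 ± 0.25 (adjusted p = 0.9997), where 7 of the 8 deletion libraries exceeded the mean of wild type. Scg2 had 212, 239 and 375 CPM in deletion cerebellum, against 111, 201 and 323 CPM in wild-type cerebellum, at 0.31 ± 0.18 (adjusted p = 0.9997). For Scg2 and Pcsk2, the mean of wild type was exceeded in 8 of 8 deletion libraries while the ranges overlapped. Pcsk2 had 123, 135 and 150.4 CPM in deletion cerebellum, against 105, 127 and 137 CPM in wild-type cerebellum, at 0.12 ± 0.08 (adjusted p = 0.9997). Nppc had 2.04, 3.83 and 17.3 CPM in deletion cerebellum, against 1.53, 3.32 and 5.83 CPM in wild-type cerebellum, at 0.53 ± 0.41 (adjusted p = 0.9997), and Tac2 had 0.0976, 0.390 and 4.77 CPM in deletion cerebellum, against 0.0325, 0.265 and 1.22 CPM in wild-type cerebellum, at 1.06 ± 0.83 (adjusted p = 0.9997). The highest deletion values of Nppc, Scg2 and Tac2 were those of animal D809.

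The difference of the genotype effect between tissues was tested in 1 fit of the 48 libraries, and between sexes in 1 fit per tissue. The fit of the 48 libraries had no term for the animal, although each animal gave 3 of them. In this edgeR fit 0 of the 31 members were called for any pair of tissues. With the animal as a replicate block in edgeR, only Nppc had an unadjusted p under 0.05, in cerebellum minus cortex. It was 0.0226 there (adjusted p = 0.840). Between the sexes 0 of 31 were called in striatum, 0 of 25 in cerebellum and 0 of 29 in cortex. The share of all genes called in these tests, between tissues or sexes, is not given here. The sexes cannot be told apart from the 2 dates in the labels. At an unadjusted p under 0.05 stood Nppc, with an effect higher in cerebellum than in cortex by 0.995 ± 0.47 on the log2 scale (adjusted p = 1 in edgeR), and Pmch in cortex, with an effect in males minus females of 6.37 ± 2.12 (adjusted p = 0.99995 in edgeR). The Pmch value includes the 44.3 CPM of deletion animal D804.

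Part of the spread moved with a property of each library as a whole. For each library the slope over genes of the deviation of log2 CPM from its tissue mean on log2 exon length was computed without the members, so that a positive slope marks a library with relatively more reads on long transcripts. Slopes ran from -0.120 to 0.145 in deletion and -0.161 to 0.160 in wild-type striatum, from -0.125 to 0.205 and -0.114 to 0.203 in cerebellum, and from -0.125 to 0.195 and -0.115 to 0.107 in cortex. With this slope as a term in the edgeR fit of each tissue, 8 of 30 members in striatum, 16 of 25 in cerebellum and 16 of 28 in cortex passed an adjusted p under 0.05, where 50.0%, 58.1% and 60.8% of all genes did. The members' shares of 26.7%, 64.0% and 57.1% were near or under those of all genes.

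Pcsk1n moved most with it among the called members of cortex. Its log2 change per 0.1 of slope was -0.87 ± 0.07 (adjusted p = 2.82e-07) in striatum, -1.002 ± 0.09 (adjusted p = 1.95e-07) in cerebellum and -0.90 ± 0.07 (adjusted p = 1.74e-08) in cortex. In cortex, deletion animal D804 at a slope of -0.125 had 643 CPM of Pcsk1n, 473 of Sst and 8.14 of Pcsk1. Deletion animal D812 at a slope of 0.195 had 81.7, 148 and 30.7 CPM of the same genes. Sst, with 0.721 kb of exon, changed by -0.50 ± 0.03 (adjusted p = 4.14e-09) and Pcsk1, with 5.60 kb, by 0.63 ± 0.05 (adjusted p = 2.54e-08), the 1 called member of positive sign in cortex. The convertase and its inhibitor ran in opposite directions across cortical libraries of both genotypes. Scg2 was not called, at 0.02 ± 0.07 (adjusted p = 0.791). What the slope reflects was not tested, and with it as a covariate the genotype calls among members stayed at 0 in all 3 tissues.

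**Figure D5:**
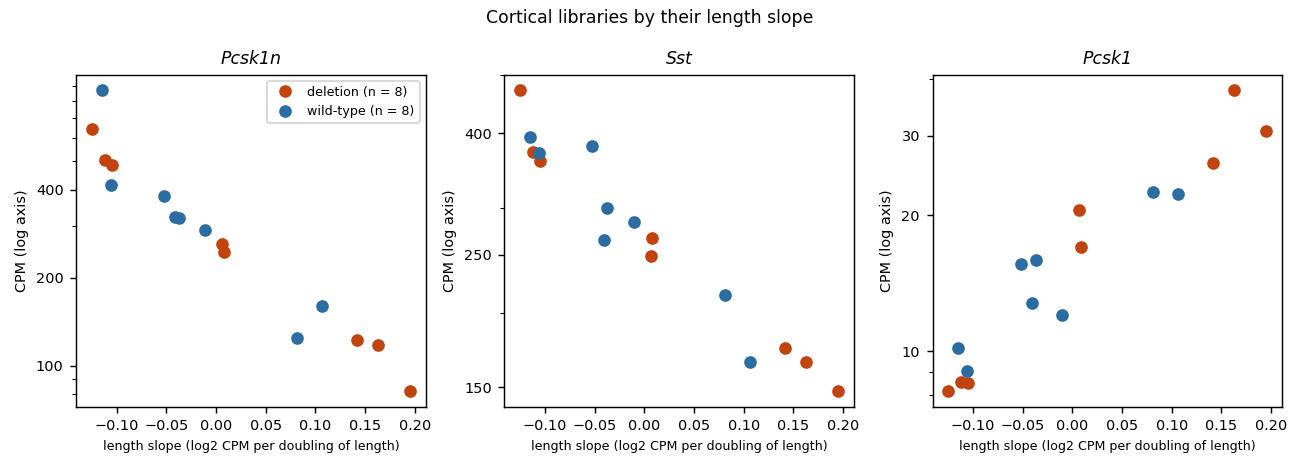
CPM on a log axis of Pcsk1n, Sst and Pcsk1 in each cortical library against its length slope (log2 CPM per doubling of exon length), deletion and wild type, 8 libraries each. Pcsk1n and Sst fall and Pcsk1 climbs from left to right in both genotypes, and the genotypes intermingle.

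Receptors and further genes of the pathway were read from 3 lists. Of 38 neuropeptide receptors, 37 were in the table and 0 were called for genotype in striatum (33 tested), cerebellum (25) or cortex (31). At an unadjusted p under 0.05 stood 1, 0 and 1, and DESeq2 called 0. Between tissues, 13 of 33 were called higher and 4 lower in striatum relative to cortex, where 4.60% and 2.62% of all genes were. In cerebellum relative to cortex, 4 of 29 were called higher and 18 lower (9.02% and 13.1% of all genes), and in striatum relative to cerebellum 26 of 33 higher and 3 lower (13.7% and 7.67%). Crhr1, the receptor of corticotropin-releasing hormone, had 87.6 to 139 CPM in wild-type cerebellum, against 25.4 to 67.3 CPM in wild-type cortex (1.49 ± 0.20 on the log2 scale), while Crh itself was lower there. Sstr2, a somatostatin receptor, had 0.445 to 2.52 CPM in wild-type cerebellum, against 22.4 to 32.1 CPM in wild-type cortex (-4.56 ± 0.31), and Mchr1, the receptor of melanin-concentrating hormone, had 0.195 to 3.47 CPM in wild-type cerebellum, against 20.3 to 28.5 CPM in wild-type cortex (-4.31 ± 0.45). Ligand and receptor were thus both lower in cerebellum for somatostatin. Vipr2, a receptor of vasoactive intestinal peptide, had 4.95 to 23.7 CPM in wild-type cerebellum, against 0.356 to 2.41 CPM in wild-type cortex (3.13 ± 0.39), and Cckbr, a cholecystokinin receptor, had 9.38 to 39.5 CPM in wild-type striatum, against 35.3 to 103 CPM in wild-type cortex (-1.98 ± 0.33). The Cckar receptor ran the other way, with 1.13 to 11.5 CPM in wild-type striatum, against 0 to 0.815 CPM in wild-type cortex (4.11 ± 0.81).

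Of 33 further neuropeptide genes, 32 were in the table and 16, 12 and 11 were tested for genotype in striatum, cerebellum and cortex; 0 were called by edgeR or DESeq2, and 0 had an unadjusted p under 0.05 in edgeR. Between tissues 3 of 14 were called higher and 0 lower in striatum relative to cortex, where 4.60% and 2.62% of all genes were. In cerebellum relative to cortex 2 of 12 were called higher and 2 lower (9.02% and 13.1% of all genes), and in striatum relative to cerebellum 5 of 13 higher and 2 lower (13.7% and 7.67%). Penk, the enkephalin precursor of indirect-pathway striatal neurons, had 92.6 to 1313 CPM in wild-type striatum, against 94.6 to 195 CPM in wild-type cerebellum (1.51 ± 0.48). Pdyn and Tac1, the precursors of dynorphin and substance P in direct-pathway neurons, had 26.8 to 177 CPM in wild-type striatum, against 0 to 3.62 CPM in wild-type cerebellum (6.46 ± 0.76) and 26.7 to 189.9 CPM in wild-type striatum, against 0.391 to 17.5 CPM in wild-type cerebellum (4.15 ± 0.74). Penk, Pdyn and Tac1 each varied several-fold between striatal libraries. The 3 genes called higher in striatum relative to cortex were Nms, Prok2 and Gnrh1, so Penk, Pdyn and Tac1 were not called there. Wild-type cortex had 21.505 to 78.561 CPM of Pdyn and 12.955 to 106.76 CPM of Tac1, and both ranges overlapped those of wild-type striatum. Of 24 other genes of processing and dense-core vesicles, 0 were called for genotype by edgeR or DESeq2, with 0, 1 and 0 at an unadjusted p under 0.05 in striatum, cerebellum and cortex. In cerebellum relative to cortex 3 of 24 were called higher, near the 9.02% of all genes, and 7 lower, where 13.1% of all genes were. In striatum 3 of 23 were higher and 0 lower relative to cortex (4.60% and 2.62% of all genes), and 8 of 23 higher and 2 lower relative to cerebellum (13.7% and 7.67%). Pcsk6, a convertase of the constitutive pathway, had 51.9 to 120.2 CPM in wild-type cerebellum, against 6.14 to 14.6 CPM in wild-type cortex (2.91 ± 0.20), and Cadps2, a priming factor of dense-core vesicles, had 99.7 to 395 CPM in wild-type cerebellum, against 57.8 to 101 CPM in wild-type cortex (1.66 ± 0.22). The tissues did not overlap for Pcsk6 and overlapped slightly for Cadps2. Of 8 activity-induced genes, Fos was called higher in deletion striatum, at a log2 difference of 1.04 ± 0.16 (adjusted p = 0.0120 in edgeR). The other 7 were not called there, where 0.128% of all genes were, and 0 of 8 were called in cerebellum or cortex. The summed CPM of the 8 genes was 203 to 1178 in deletion and 138 to 508 in wild-type striatum. It was highest in D801, which also had the highest striatal marker sum. Levels of Fos by library are not given here.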

How the data were processed

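RNA was sequenced from 48 dissections, 1 per tissue of each of 16 mice, after TruSeq stranded library preparation (per the labels). What the authors deposited is 1 table of raw read counts per gene, with Ensembl IDs and 92 spike-in rows. The submitters' processing notes name STAR 2.4.2a, FastQC 0.10.1, Picard and SAMtools and the builds GRCm38 and mm8; neither the counting program nor its strand setting is recorded there, so that reads of overlapping genes on opposite strands may be mixed for Pmch, Nmu, Pcsk2 and Pcsk1n. Of 47069 gene rows, 46488 took a symbol from GENCODE vM21. Spike-ins were 0.0614% to 1.09% of counts and were left out.

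Counts were fitted with edgeR 4.0.16 in R 4.3.3 (TMM scaling, filterByExpr, quasi-likelihood test), per tissue with sex and genotype, and in wild-type animals with sex and tissue. Benjamini-Hochberg adjustment ran over all genes tested. Genotype calls needed an adjusted p under 0.05, and tissue calls also a log2 fold change of at least 1. DESeq2 1.42.0 was an alternative. Spread is the SD of log2 CPM with a prior count of 2. The scripts were tested on simulated data. The members and lists were chosen with earlier results of these data known, and the length slope was added after the data were seen. Values by library are given for the most abundant members of a role, those of largest tissue fold, those among the 6 of largest spread and the 5 of smallest genotype p per tissue; other values given were chosen after they were seen. Tissues of 1 animal are paired by the labels: the correlation of their deviations over genes had medians of 0.372, 0.434 and 0.240 for striatum with cortex, cerebellum with cortex and striatum with cerebellum, against -0.07, -0.00 and -0.04 for tissues of different animals.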

Additional observations from a re-analysis of the deposited data

Results flagged for a closer look

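A sample was set apart where its gap to the next library exceeded the 95% critical value of Dixon's test for 8 samples. This held for 11 of the 166 combinations of tested member and group, and chance gives about 1 in 20 groups. In deletion cerebellum animal D809 stood above the rest for Tac2 at 4.77 CPM, Vgf at 199 CPM and Chga at 631 CPM; the next values were 0.551, 56.6 and 284 CPM. In deletion striatum the isolated values were low ones: animal D811 for Pnoc at 4.02 CPM, animal D801 for Tac2 at 1.87 CPM and for Adcyap1 at 0.715 CPM, and animal D812 for Cpe at 1624 CPM. In deletion cortex animal D804 was high for Pmch at 44.3 CPM and animal D812 low for Crh at 2.47 CPM. Among wild-type libraries, animal W816 was high for Avp in cortex at 25.9 CPM and animal W813 high for Chgb in striatum at 942 CPM.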

How the results depend on the processing

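Genotype calls among members stayed at 0 in each tissue under every alternative run: DESeq2, its size factors, no count filter, no sex term, 1 sex, marker covariates, 1 fit of all 48 libraries, the length slope as covariate, and libraries left out by their marker levels. Counts of tissue calls moved in few cases, and the shares of all genes called in those runs are not given here. Females alone, with 4 libraries per tissue, gave 0 higher and 0 lower in striatum against cortex. Leaving out the 2 wild-type striatal libraries in which thalamic markers exceeded striatal ones in mean log2 CPM gave 5 higher. Without the fold minimum, 2 were higher in cerebellum than in cortex and 2 lower in striatum than in cerebellum. With the replicate block, 7 were higher and 5 lower in striatum against cortex, 0 and 16 in cerebellum against cortex, and 20 and 1 in striatum against cerebellum; it ended calls of Pmch, Pomc and Scg2 and added Trh in striatum against cortex and Cort in striatum against cerebellum. Without the 4 wild-type cortical libraries low in striatal markers, the uncalled genotype values turned to 0.0324 for Nppc, 0.11 for Scg3, 0.48 for Grp and 0.12 for Cck. Marker covariates turned Grp in cortex to 0.0190 and Pomc in striatum to 0.0492, and males alone turned Tac2 in cerebellum to -0.12; the cause was not tested. Of the single-member values 598 kept direction and side of the threshold, 65 kept direction but lost the call and 7 turned. Low counts in many libraries limit Hcrt, Nmu and, in cerebellum, Pmch, Avp and Oxt.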
